A study of Mus musculus with 10 samples.

Results

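The baseline described here is that of mammary tumors from mice given the vehicle (Vhcl) alone. It rests on all 5 tumors labeled as vehicle controls (A45, A49, A54, A59 and AB11) of the 10 tumors in the series. The other 5 tumors, from treated mice, were not used. All 5 came from female FVB/N-Tg(MMTVneu) mice (Tg-neu), in which the mouse mammary tumor virus promoter drives the neu proto-oncogene in mammary epithelium, so spontaneous tumors arise in mice that all carry the transgene and no tumor here lacks it. Vehicle was ethanol, injected intraperitoneally 3 times a week for 6 weeks from the time the first tumor could be felt. A free-text label calls these tumors not treated, and no age at tumor collection is given in the labels. The group is described as 5 animals, but no label links a given tumor to a given animal. RNA of 1 whole tumor was hybridized to 1 Affymetrix mouse whole-genome array, and each gene was read by its probe set of highest mean over the 5 tumors, which gave 18193 genes. Of these, 243 (1.34% of all genes) had a standard deviation (SD) of at least 1 between the tumors on the log2 scale, where a difference of 1 is a doubling of signal.

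The mammary gland holds an inner layer of luminal cells, which make milk when the gland is stimulated by prolactin, and an outer layer of contractile basal cells. Tumors driven by neu are known to keep luminal features, and around the tumor cells lie fibroblasts, vessels, macrophages and, at the edge, whatever tissue the gland adjoins. In mice the mammary glands reach from the neck, next to the salivary glands, to the groin, and lie on the muscle of the body wall. Because RNA was taken from whole tumors, fewer cells of a type and less RNA per cell cannot be told apart in any value below. The labels do not say which gland a tumor came from.

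Signals of a gene can be compared between tumors. Signals of different genes depend on their probes, so an order of genes is an order of signals and not of transcript amounts. Each tumor had 1 array, so a spread between tumors includes the error of the array, and with 1 group no difference was tested. The 5 arrays had medians of 4.98 to 5.02 over all probe sets, and any 2 of them correlated with r of 0.972 (A49 and AB11) to 0.980 (A54 and AB11) across probe sets. The mean of 10 housekeeping genes differed by 0.09 between tumors, from 10.91 to 11. The 3′ minus 5′ difference of the beta-actin control probe sets, which grows as RNA is degraded, was 0.80 in A45, 0.83 in A49, 1.20 in A54, 1.35 in A59 and 0.99 in AB11. Genes of organs that should be absent, among them the Y-linked Uty, Kdm5d and Eif2s3y, had list means of 4.08 to 4.32, which serves below as the level of background. Single members had means of 2.86 to 6.47, so that level is a guide and not a floor for 1 probe set.

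Caseins, whey-type proteins and the genes of ribosomes and the cytoskeleton had the highest signals. Csn3, which encodes kappa-casein, the protein that keeps casein micelles in suspension, led all 18193 genes at 14.18 ± 0.11 (mean ± SD, n = 5), and Wfdc18, a small protein with a whey-acidic-protein fold, followed at 13.90 ± 0.12. Lcn2, an iron-siderophore binding lipocalin, ranked 4 at 13.57 ± 0.17. Tpt1, Actg1, Eef1a1, Actb, Tmsb10 and 9 ribosomal protein genes (Rpl35, Rpl37a, Rpl38, Rpl41, Rps2, Rps28, Rps29, Rps3a1 and Rps4x) filled the other places among the first 20, together with Csn1s1, B2m and H2-K1, the light chain and a heavy chain of class I antigen presentation, at 13.20 ± 0.16 and 13.04 ± 0.15. In that group of 20, SDs were 0.26 or less with 1 exception. Csn1s1, alpha-S1-casein, had a mean of 13.09 and an SD of 0.96, with 11.41 in A45 and 13.25 to 13.79 in the other 4 tumors. Of the 20 genes, 18 were read by probe sets whose names mark them as shared between transcripts, and among the 100 highest signals 32 belonged to ribosomal protein genes.

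All 5 tumors had a luminal profile with low signals of Krt5, Krt14 and Trp63. Keratin 18 (Krt18) stood at 12.10 to 12.73 and its partner Krt8, the other keratin of simple epithelium, at 11.78 to 12.23. Epcam, an epithelial adhesion molecule, lay at 12.18 to 12.57 and E-cadherin (Cdh1) at 9.65 to 10.07. Elf5, a transcription factor of luminal progenitors and milk-forming alveoli, lay between 11.03 and 12.36, highest in A49, and Gata3, a keeper of luminal identity, between 8.89 and 10.21, lowest in A45. Both factors thus had ranges above 1. Signals of the basal keratins were 5.23 to 5.82 for Krt5 and 4.21 to 4.83 for Krt14. The basal transcription factor Trp63 was at 4.14 to 5.50. These genes stayed under the median gene (6.0) in every tumor, though Krt5 was above the background level throughout.

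The mean of the 27 measured luminal genes was 8.63 in A45, 8.89 in A49, 8.87 in A54, 9.02 in A59 and 8.58 in AB11. The corresponding basal list of 19 genes had means of 5.72 in A45 to 6.0 in A49. Within the luminal list 22 of 27 genes had a mean above the median gene (6.0), and 6 of 19 basal genes did, led by Itga6 (9.69 to 10.44), an integrin chain that luminal progenitors also carry, and by Dst (9.89 to 10.59) and Itgb4 (7.86 to 8.54), which join cells to the basement membrane. The single basal gene with an SD of at least 1 was Oxtr, described below with the genes of A49. A single luminal gene, Krt19, reached an SD of 1. This keratin measured 4.79 in A45, 6.46 in A49, 4.27 in A54, 8.24 in A59 and 5.32 in AB11, so A59 was highest and A54 lowest. Xbp1, a transcription factor of secretory cells, had the highest mean of the list and lay at 12.30 to 13.12. Aldh1a3, a retinaldehyde dehydrogenase of luminal progenitors, was high in A49 and A59 (6.84 and 6.85, against 4.97 to 5.37), and Prom1, a membrane glycoprotein, reached 10.07 in A59 with 7.69 to 9.04 elsewhere. Spdef, an epithelial transcription factor, ranged from 5.22 in AB11 to 7.74 in A45. Estrogen receptor alpha (Esr1) measured 7.23 to 8.27, whereas the progesterone receptor gene (Pgr) stood at 3.32 to 3.68, under the background level.

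The gene of the receptor that the transgene encodes, Erbb2, had a signal of 8.08 in A45, 8.44 in A49, 8.37 in A54, 7.82 in A59 and 8.03 in AB11. The spread was 0.62, with an SD of 0.26, a little above the median SD of all genes (0.22). Whether the probe set also reads the transgene was not tested. Its dimerization partner Erbb3 lay at 9.76 to 10.78, and Egfr lay at 7.13 to 8.02. Erbb4, the fourth member of the family, stood at 2.53 to 2.84, under the background level. Among the ligands Egf varied most, with 8.66 in A45, 5.80 in A49, 7.54 in A54, 6.05 in A59 and 7.89 in AB11, which puts A45, A54 and AB11 apart from A49 and A59. Tgfa, which like Egf binds Egfr, was highest in A59 (8.63) and lowest in A49 (6.33), and Hbegf, another ligand of Egfr, lay at 5.54 to 6.83, again lowest in A49.

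A typical gene differed little between tumors. The median SD over all genes was 0.22 and 95% of genes had an SD under 0.62. A range of at least 1 between the highest and lowest tumor was found in 2854 genes (15.7%), and a range of at least 4 in 52. The 243 genes with an SD of 1 or more were not drawn from weak signals alone, as 12, 65, 104 and 62 of them fell in 4 equal parts of the genes ordered from lowest to highest mean. Of the 100 genes with the largest SD, 41 belonged to one of the 27 gene lists. These included 12 of the salivary list, 15 of the skeletal muscle list and 6 of the milk list. The 27 lists held 505 measured entries, against 18193 genes, with 20 in the salivary list, 30 in the muscle list and 20 in the milk list. They were chosen with earlier results of these data known, so the counts are no measure of an excess.

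**Figure D1:**
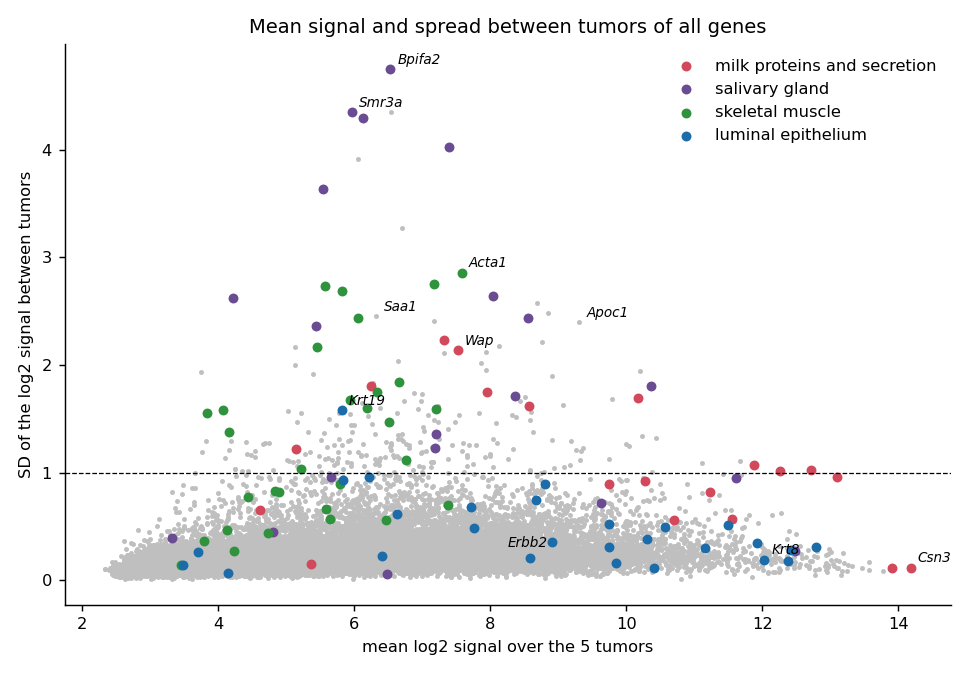
Each gray point is 1 of 18193 genes, placed by its mean log2 signal over the 5 tumors (horizontal axis) and its SD between them (vertical axis), with 4 gene lists colored and the dashed line at an SD of 1. The most variable genes are salivary gland genes of middling mean, up to an SD of 4.75 for Bpifa2, whereas Csn3 at the right end has an SD of 0.11.

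Which tumor was extreme differed from gene to gene. Among the 100 genes of largest SD the highest signal fell in A59 for 30, in AB11 for 21, in A49 for 20, in A45 for 18 and in A54 for 11. Over all genes the highest signal fell in A59 for 19.8%, in AB11 for 17.2%, in A49 for 20.2%, in A45 for 22.8% and in A54 for 20.01%, which are also the shares against which counts of highest members in a list should be read. The lowest signal among the 100 genes fell in A49 for 29 (23.8% of all genes) and in A45 for 25 (20.9% of all genes), near those shares. Each of the 243 genes was also divided at the largest gap in its 5 ordered values. By this division A45 alone was high for 26 genes, A59 alone for 23, A54 with A59 for 22, A49 with A59 for 19, A49 alone for 18 and AB11 alone for 14, and A45 alone was low for 19. The shares for a single tumor were near those of all genes, with A45 high for 10.7% against 8.12%, A59 high for 9.47% against 6.68%, A49 high for 7.41% against 7.62%, AB11 high for 5.76% against 5.17%, and A45 low for 7.82% against 6.67%. The pair A54 and A59 was on the high side of 9.05% of these genes, against 1.58% of all genes, and the pair A49 and A59 of 7.82% against 1.48%. A single tumor lay apart from the other 4, by Dixon's gap criterion at the 95% level, in 32 of the 243 genes (13.2%), against 6.41% of all genes.

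**Figure D2:**
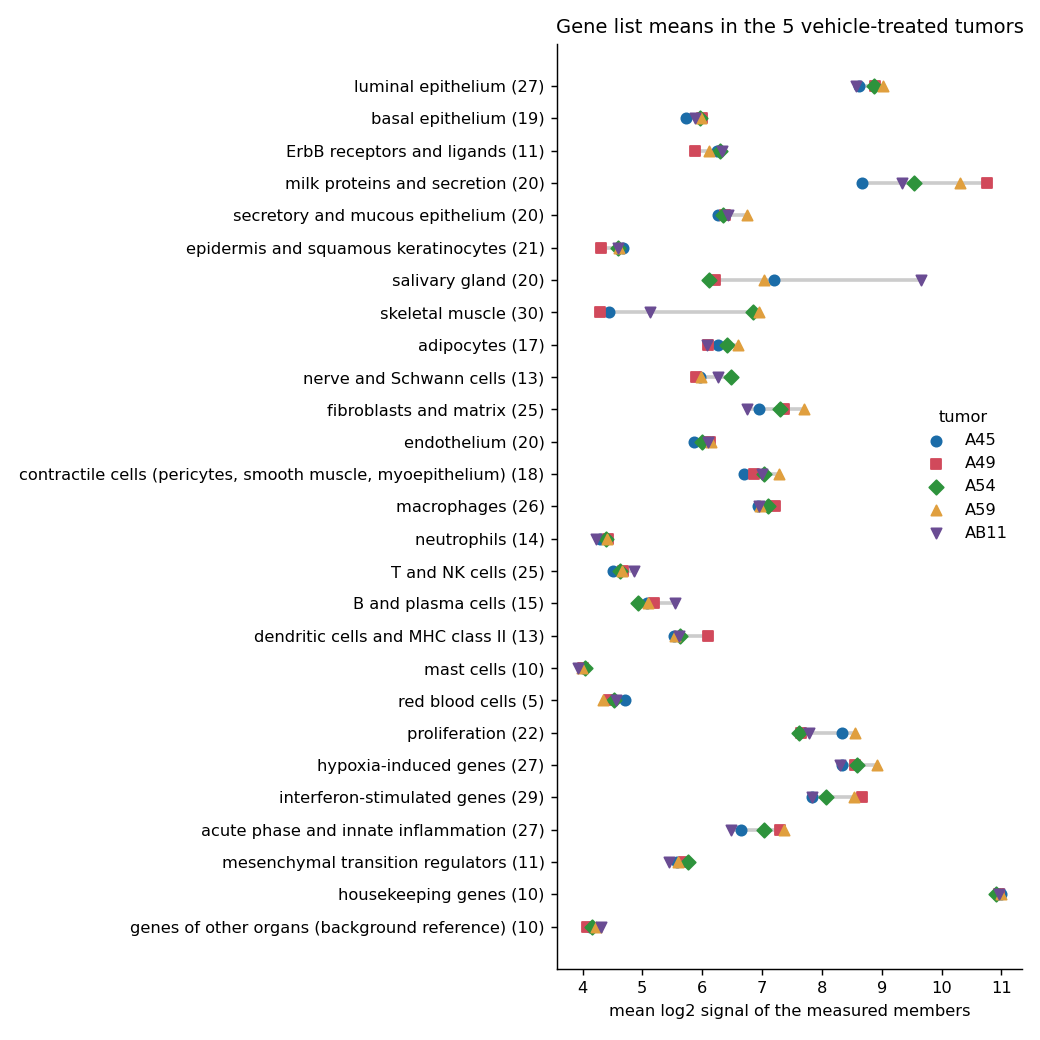
Each row is a gene list with its number of measured members, and each symbol is the mean log2 signal of those members in 1 of the 5 tumors; the gray bar joins the lowest and highest tumor. Bars are long for the salivary gland list (3.55), the skeletal muscle list (2.66) and the milk list (2.10), and short for housekeeping genes (0.09).

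Milk genes were high in all tumors on average but differed strongly between them. The mean over the 20 measured members of the milk list was 8.67 in A45, 10.76 in A49, 9.53 in A54, 10.31 in A59 and 9.34 in AB11, so A49 exceeded A45 by 2.10 (4.28-fold). A49 was the highest tumor for 12 of the 20 genes and A59 for 6, and A45 was the lowest for 11. In all, 10 genes of the list had an SD of 1 or more, and the median SD of the members was 0.99, against 0.22 over all genes.

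Csn1s2b, an alpha-S2-like casein, measured 4.41 in A45, 10.28 in A49, 6.38 in A54, 8.63 in A59 and 6.94 in AB11. Wap, the whey acidic protein gene, had signals of 5.29 in A45, 10.28 in A49, 7.18 in A54, 9.10 in A59 and 5.77 in AB11. In both genes A49 and then A59 were high and A45 was low. Lao1, an amino acid oxidase secreted into milk, was 5.97 in A45, 10.52 in A49, 7.97 in A54, 8.53 in A59 and 6.78 in AB11. Btn1a1, the butyrophilin of the milk fat globule membrane, reached 12.22 in A49 and 11.19 in A59 but 8.19 in A45 and 8.70 in AB11. Genes of milk fat synthesis were highest in A49 too. Thrsp, a regulator of lipogenesis, ranged from 6.05 in A45 to 10.21 in A49, and Olah, which releases medium-chain fatty acids, was at 7.14 in A49, 5.47 in A59 and 4.18 to 4.48 in the other 3 tumors.

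Abundant caseins spread less. Csn2, beta-casein, measured 12.17 in A45, 13.11 in A49, 11.85 in A54, 13.34 in A59 and 10.82 in AB11, and here AB11 and not A45 was lowest. Csn1s2a was 11.25 to 13.72 with A45 lowest, and Mfge8, lactadherin, was 10.10 in A45 and 11.68 to 12.66 elsewhere. Lalba, alpha-lactalbumin of the lactose synthase complex, ranged from 10.22 in A45 to 12.28 in A49. Csn3 and Wfdc18, the highest signals on the array, spanned no more than 0.30 and 0.31; near the top of the scale an array compresses differences, and how far that applies here was not tested. Glycam1, a mucin-like milk protein, had its own pattern, with 9.06 in A59, 7.05 in AB11 and 4.82 to 5.29 in the others. The caseins sit side by side in the genome: Csn2, Csn1s2a and Csn1s2b are consecutive among the measured genes of chromosome 5 in the GRCm38.p6 gene table, and all 3 passed an SD of 1.

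Prolactin acts on milk genes through STAT5, which binds the letters TTCNNNGAA. RefSeq promoters (GRCm38.p6, 250 bases before to 50 after the start of transcription) were given for 14 of the 20 milk genes, and 4 of the 14 held this motif on either strand, namely Csn1s1, Csn1s2a, Csn2 and Glycam1. Among 20 interferon-stimulated genes 6 held it as well, and 1 of 20 salivary genes and 1 of 21 muscle genes held it, against 9.55% of all 27025 genes with a promoter; the motif is its own reverse complement, and it can overlap the interferon element described below. A match is a description of letters and not of binding. The promoters of Csn1s1 and Csn2 are shown as examples from the casein genes that hold it; capitals mark the motif, which begins 100 bases before the start in Csn1s1 and 93 bases before it in Csn2.
Csn1s1 (GRCm38.p6 chr5:87665958-87666257, plus strand): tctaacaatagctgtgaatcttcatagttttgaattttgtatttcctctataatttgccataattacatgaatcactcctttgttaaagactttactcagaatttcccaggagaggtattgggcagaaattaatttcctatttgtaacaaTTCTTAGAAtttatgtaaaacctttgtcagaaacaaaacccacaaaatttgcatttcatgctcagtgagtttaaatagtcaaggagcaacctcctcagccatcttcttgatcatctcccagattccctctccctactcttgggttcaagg
Csn2 (GRCm38.p6 chr5:87699376-87699675, minus strand): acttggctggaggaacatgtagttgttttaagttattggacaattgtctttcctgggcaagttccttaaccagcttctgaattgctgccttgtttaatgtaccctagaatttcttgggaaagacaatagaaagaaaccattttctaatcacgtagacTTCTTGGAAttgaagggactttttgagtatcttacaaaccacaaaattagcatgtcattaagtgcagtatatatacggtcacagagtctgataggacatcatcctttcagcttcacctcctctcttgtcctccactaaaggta

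Genes of salivary secretion gave the largest differences of the whole array, and AB11 was their highest tumor. Bpifa2, the parotid secretory protein, measured 3.25 in A45, 3.27 in A49, 3.31 in A54, 9.09 in A59 and 13.73 in AB11. Smr3a, a submandibular gland peptide precursor, was 3.68 in A45, 3.36 in A49, 3.54 in A54, 5.67 in A59 and 13.56 in AB11. Amy1, salivary amylase, read 3.22 in A45, 3.64 in A49, 3.56 in A54, 6.90 in A59 and 13.34 in AB11. For these 3 genes AB11 was far above the rest, A59 was second, and A45, A49 and A54 were under the background level of other organs. Pip (12 in AB11, 3.60 to 4.54 in the others), Prpmp5, a proline-rich salivary protein (8.92 against 2.96 to 3.25), and Lpo, lactoperoxidase (9.63 against 4.08 to 4.80), were high in AB11 alone.

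Chia1, an acidic chitinase, and Dnase1, a secreted nuclease, were no members of the salivary list but had the same form, with 13.89 and 12.97 in AB11, 7.15 and 5.41 in A59 and at most 4.06 and 4.00 in the rest. The unnamed gene 2310057J18Rik (12.48 in AB11, 4.47 to 5.88 elsewhere) and Mucl2, a mucin-like gene (7.20 against 2.62 to 3.06), were high in AB11 alone. Of the 14 genes for which AB11 alone was high, 6 were in the salivary list, which held 20 of the 18193 genes. That list was chosen with earlier results of these data known, so the count is no measure of an excess.

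Not all salivary genes had this form. The mean over the 20 measured members was 7.20 in A45, 6.22 in A49, 6.11 in A54, 7.04 in A59 and 9.66 in AB11, and AB11 was highest for 10 of them, A45 for 4, A54 for 3, A59 for 2 and A49 for 1. Of the 20, 13 had an SD of at least 1. Cst10, a cystatin, was 8.96 in A45, 4.01 in A49, 3.67 in A54, 6.85 in A59 and 13.45 in AB11, so A45 was second. Dcpp1 and Dcpp3, neighboring and closely similar genes of demilune and parotid cells whose signals may be shared, were high in A59 (10.54 and 10.64) as well as in AB11 (10.68 and 9.07), and Dcpp3 was close to that in A45 (8.78). The secretoglobins Scgb1b27 and Scgb2b27, also neighbors and members of a family of near copies, were highest in A45, at 12.77 and 13.13, with 6.57 to 8.13 and 8.32 to 10.72 in the other 4 tumors. Aqp5, a water channel of secretory epithelium, and Car6, a secreted carbonic anhydrase, were high in all, at 12.01 to 12.65 and 10.64 to 13.18. For 1 gene the choice of probe set decided the pattern. Klk1, a kallikrein of salivary ducts, was 6.39 to 6.54 by the probe set of highest mean, but 2 other probe sets read 10.12 and 10.04 in AB11 and 2.57 to 3.25 in the other 4 tumors. Egf, which salivary ducts also make, and Prol1 did not follow AB11, with Prol1 highest in A49 (9.51), and Klk1b24 was under the background level in all 5 tumors (2.83 to 3.88). Without AB11 the spread of the list was 1.10 in place of 3.55, and A45 was its highest tumor. Whether AB11 held salivary tissue was not tested.

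Skeletal muscle genes separated A54 and A59 from the other 3 tumors. Acta1, the actin of skeletal muscle, measured 5.60 in A45, 4.21 in A49, 10.44 in A54, 10.57 in A59 and 7.08 in AB11. Tnnc2, troponin C of fast fibers, was 4.71 in A45, 4.35 in A49, 9.93 in A54, 10.08 in A59 and 6.78 in AB11. Myl1 and Mylpf, light chains of fast myosin, were 8.30 and 8.35 in A54, 8.93 and 8.90 in A59 and at most 5.44 and 5.92 in the others. Myh4, a fast myosin heavy chain, was 3.14 in A45, 3.18 in A49, 8.61 in A54, 8.47 in A59 and 5.68 in AB11. For Acta1, Tnnc2 and Myh4 alike, A54 and A59 were close to each other, AB11 lay between, and A45 and A49 were lowest. Atp2a1, the calcium pump of fast fibers, was 5.78 in A45, 5.62 in A49, 9.05 in A54, 8.66 in A59 and 6.91 in AB11. Creatine kinase (Ckm) was 4.85 in A45, 4.57 in A49, 8.22 in A54, 8.13 in A59 and 5.94 in AB11, and the giant sarcomere protein titin (Ttn) was 3.39 in A45, 3.43 in A49, 7.5 in A54, 7.93 in A59 and 5.04 in AB11.

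Over the 30 genes of the list, all measured, the means were 4.44 in A45, 4.30 in A49, 6.84 in A54, 6.95 in A59 and 5.12 in AB11, a range of 2.66 (6.3-fold). A59 was highest for 18 genes and A54 for the other 12, and A49 was lowest for 19. An SD of at least 1 was found for 17 of the 30. Of the 22 variable genes whose largest gap left A54 and A59 on the high side, 16 were in the list, which held 30 of the 18193 genes. The list was chosen with earlier results of these data known, so that count is no measure of an excess. Of the remaining 6, Mybpc2, Myom2, Smpx and Trdn encode proteins of the sarcomere or its membranes too. Genes of slow or immature fibers showed less, as Tnnt1 was at 3.29 to 4.18, Tnnc1 at 4.41 to 5.48 and Myh8 at 3.26 to 3.61. Myoglobin (Mb), which slow and oxidative fibers hold in quantity, was highest in A54 (8.54) and at 7.19 in A59, within the 6.82 to 7.5 of the others. A54 and A59 also had the largest beta-actin 3′ minus 5′ differences (1.20 and 1.35), whose part in these differences was not tested.

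**Figure D3:**
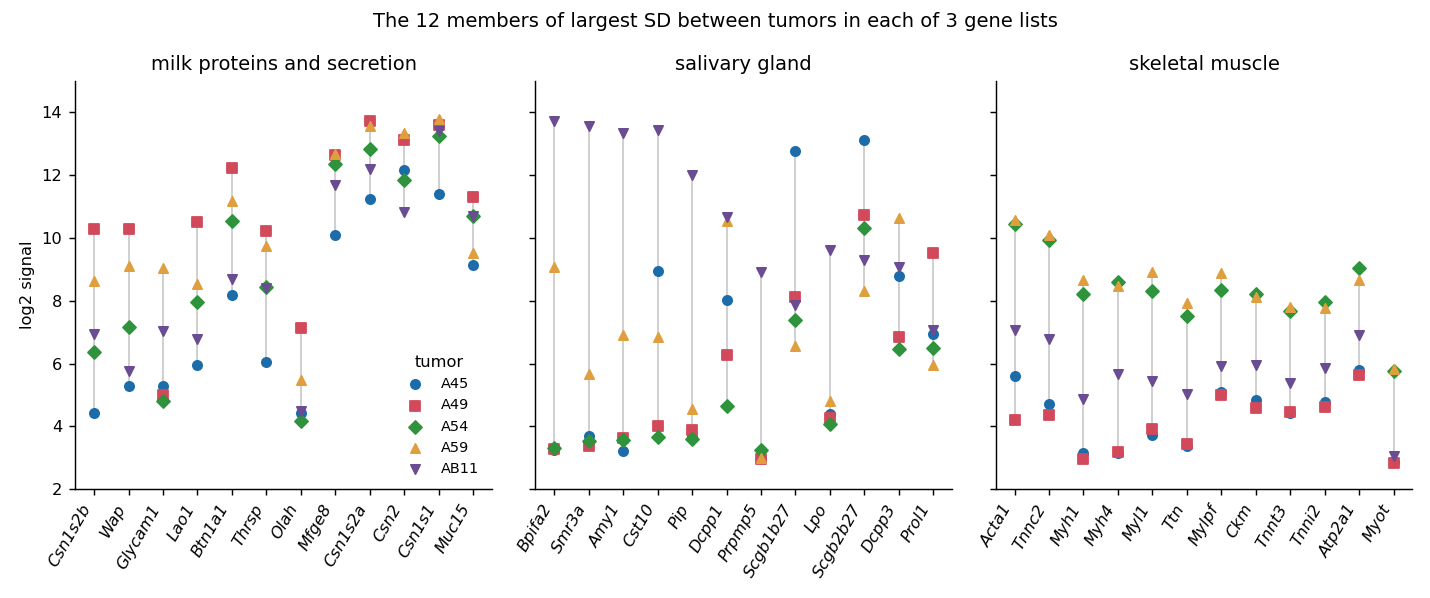
For 3 gene lists the 12 members of largest SD are shown, with log2 signal on the vertical axis and 1 symbol per tumor. A49 and A59 are high and A45 mostly low for milk genes, apart from Glycam1, which is at 5.01 in A49. AB11 reaches 13.73 for salivary genes, with A45 above it for Scgb1b27 and Scgb2b27. For muscle genes A54 and A59 lie together above AB11.

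Lists of fat, nerve and epidermis held fewer variable genes. Among 17 adipocyte genes 2 had an SD of at least 1. Car3, a carbonic anhydrase that fat and muscle both hold, was 7.62 in A45, 4.89 in A49, 9.58 in A54, 10.28 in A59 and 7.34 in AB11, and Cd36, a fatty acid carrier also present in milk-forming cells, was 10.00 in A45, 11.12 in A49, 9.01 in A54, 10.34 in A59 and 8.25 in AB11. Scd1, a fatty acid desaturase of fat and of milk-forming cells, was high in all (12.17 to 13.23, highest in A49), and Lpl, lipoprotein lipase, was 7.85 to 9.31. Adipoq, the fat hormone adiponectin, was low, at 3.79 to 6.14, and Lep was at 3.11 to 3.27. In the list of nerve and Schwann cells Npy was highest in A54 (9.19, against 5.82 to 7.62) and S100b was 7.4 in A45, 5.32 in A49, 8.10 in A54, 5.68 in A59 and 7.54 in AB11, while Sox10, which mammary tumor cells can express as well as glia, was high throughout (10.98 to 11.57), as were Cdh19 (7.89 to 9.01) and myelin basic protein (Mbp, 8.01 to 8.51). Of the 21 genes of stratified epidermis, 0 had an SD of 1. The mean of that list was lowest in A49 (4.31, against 4.59 to 4.68), with Krt10, a keratin of differentiating epidermis, at 5.11 in A49 and 6.66 to 7.82 in the others, although Sbsn, suprabasin, was high in all (7.60 to 8.92). Genes of secretory and mucous epithelium had list means of 6.27 in A45 to 6.75 in A59, with 3 of 20 at an SD of at least 1. Bpifb1, of airway and salivary glands, was 9.26 in AB11 and 6.21 to 6.50 in the others, and Clca2 was 7.70 in A59 and 4.55 to 5.75 in the others, while Fxyd3, a regulator of the sodium pump, was even at 11.99 to 12.49.

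Of the 19 variable genes with A49 and A59 on the high side, Ltf and Sftpd had the largest SDs. Ltf, lactoferrin, an iron-binding protein of milk and mucosal fluids, measured 7.91 in A45, 11.09 in A49, 7.42 in A54, 11.81 in A59 and 6.03 in AB11. Sftpd, a collectin that binds microbes, was 8.11 in A45, 10.49 in A49, 7.63 in A54, 11.54 in A59 and 6.07 in AB11. Clca3a1, a secreted calcium-activated chloride channel regulator, was 7.98 in A45, 10.53 in A49, 6.63 in A54, 10.08 in A59 and 5.46 in AB11, and its neighbor and close relative Clca3a2 was 10.47 in A45, 12.13 in A49, 8.82 in A54, 11.95 in A59 and 7.67 in AB11. In all 4 genes A49 and A59 held the top 2 places and AB11 the last. The probe sets of Clca3a1 and Clca3a2 may share signal, so the 4 genes need not be 4 separate readings. Srgn, the proteoglycan serglycin, gave 11.67 and 11.54 in A49 and A59 and 8.26 to 9.04 in the others, and Pigr, which carries IgA across epithelium, was 7.98 to 9.66 with A59 highest, AB11 (9.41) next, A49 at 9.28 and A45 lowest.

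Among acute phase genes 6 of the 27 measured had an SD of 1 or more. Saa1, serum amyloid A, was 4.18 in A45, 10.01 in A49, 6.44 in A54, 7.01 in A59 and 3.99 in AB11, and Saa2 next to it on chromosome 7 was 4.99 in A45, 8.67 in A49, 5.81 in A54, 6.55 in A59 and 4.97 in AB11; the probe sets of these near copies may share signal. Lrg1, a leucine-rich glycoprotein induced in inflammation, was 10.71 in A49, 9.74 in A59 and 6.62 to 8.21 in the rest. Cp, ceruloplasmin, was lowest in A45 (9.90, against 11.62 to 12.82). Pglyrp1, a peptidoglycan binding protein, followed another division, with 10.19 in A45, 10.21 in A59 and 7.16 to 7.85 in the others, and Hp, haptoglobin, was highest in A59 (7.68). Chil1, a chitinase-like protein, was 11.64 in A45, 11.65 in A49, 11.70 in A54, 12.36 in A59 and 9.73 in AB11, lowest in AB11. The cytokine Il6 (2.60 to 2.88) and the neutrophil chemoattractants Cxcl2 (3.03 to 3.19) and Cxcl5 (2.59 to 2.99) were under the background level in all 5 tumors. The list as a whole had means of 6.64 in A45, 7.30 in A49, 7.03 in A54, 7.37 in A59 and 6.48 in AB11.

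Interferon-stimulated genes followed the same pair of tumors. Their mean over 29 members was 7.83 in A45, 8.66 in A49, 8.06 in A54, 8.54 in A59 and 7.84 in AB11. A49 was highest for 18 of the 29 and A59 for 9, while A45 was lowest for 14 and AB11 for 10. By the median of the members A59 and not A49 was highest. Only Oas2, an enzyme that activates the RNase L pathway, had an SD of at least 1, with 6.0 in A45, 8.67 in A49, 6.64 in A54, 7.77 in A59 and 5.93 in AB11. Trim30a was 6.60 to 8.35, Zbp1, a sensor of Z-form nucleic acids, 6.62 to 8.39, and Oasl1 5.54 to 7.0, with A45 lowest for each. Herc6, a ubiquitin ligase, was 8.18 in A49, 8.09 in A59 and 6.33 to 7.25 in the others, and Ifi35 was 9.79 to 10.76, likewise highest in A49 and A59. The antiviral GTPase Mx1 did not follow the pair, with 6.60 in A45, 6.11 in A49, 5.72 in A54, 7.11 in A59 and 4.91 in AB11. Ifit1, which binds viral RNA, varied little (9.35 to 9.80), and Ifitm3 was high in all (11.01 to 12.24).

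Interferon acts through a promoter element read by STAT and IRF factors, with a core of the letters GAAA, any 2 bases and GAAA again. Among the 20 interferon-stimulated genes with RefSeq promoters, 12 held these letters on either strand, against 3.99% of all 27025 genes with a promoter; 0 of 14 milk genes, 0 of 20 salivary genes and 0 of 21 muscle genes did. The list was drawn up from genes known to respond to interferon, so the share describes the list and not these tumors. Promoters of Ifit1, Ifit3 and Rsad2 are shown as members present in every tumor, where Ifit3 ranged from 7.78 to 8.76 and Rsad2 from 8.72 to 9.81; capitals mark the letters, here on the opposite strand as TTTC, any 2 bases and TTTC, which occur at 2 places in Ifit1 and in Ifit3 and at 1 in Rsad2.
Ifit1 (GRCm38.p6 chr19:34640639-34640938, plus strand): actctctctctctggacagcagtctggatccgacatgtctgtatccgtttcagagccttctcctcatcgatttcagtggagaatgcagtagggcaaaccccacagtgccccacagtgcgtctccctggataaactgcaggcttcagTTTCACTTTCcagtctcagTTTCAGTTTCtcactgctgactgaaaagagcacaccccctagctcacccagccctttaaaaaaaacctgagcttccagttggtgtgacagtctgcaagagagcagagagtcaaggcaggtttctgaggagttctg
Ifit3 (GRCm38.p6 chr19:34583279-34583578, plus strand): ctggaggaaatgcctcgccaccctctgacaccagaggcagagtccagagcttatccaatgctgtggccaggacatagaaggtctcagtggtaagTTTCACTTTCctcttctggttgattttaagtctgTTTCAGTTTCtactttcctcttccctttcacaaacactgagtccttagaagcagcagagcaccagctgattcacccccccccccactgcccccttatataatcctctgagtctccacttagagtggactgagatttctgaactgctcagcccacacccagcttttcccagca
Rsad2 (GRCm38.p6 chr12:26456403-26456702, minus strand): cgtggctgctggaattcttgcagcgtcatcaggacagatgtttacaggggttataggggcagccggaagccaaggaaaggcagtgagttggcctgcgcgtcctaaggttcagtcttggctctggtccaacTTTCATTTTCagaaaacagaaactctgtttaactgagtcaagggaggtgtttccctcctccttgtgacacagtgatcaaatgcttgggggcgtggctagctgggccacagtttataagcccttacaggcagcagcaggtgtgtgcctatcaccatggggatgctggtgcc

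Several genes set a single tumor apart. In A49 desmoplakin (Dsp), the protein that ties keratin filaments to desmosomes, was 4.16, at the background level, and 9.06 to 10.47 in the other 4. The second probe set of Dsp read 2.96 in A49 and 7.42 to 8.93 elsewhere. Bex1, a small signaling adaptor, was also low there (3.37, against 7.07 to 9.79), as were Comp, a matrix protein (7.98 against 10.15 to 11.43), and Col4a4, a basement membrane collagen chain (4.58 against 7.19 to 7.65). High in A49 were Cck, the precursor of the peptide hormone cholecystokinin (8.73 against 4.09 to 5.10), Oxtr, the oxytocin receptor through which myoepithelium contracts (8.82 against 5.35 to 6.68), Angpt1, a ligand of the vessel receptor Tie2 (7.48 against 3.69 to 5.88), and Slc43a3, a nucleobase transporter (9.23 against 5.47 to 6.93).

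In A45 the transporter gene Slc12a8 was 8.70, against 4.17 to 4.29 in the others, and its second probe set was also highest there. Tspan1, a tetraspanin of secretory epithelium (10.83 against 5.59 to 8.21), Fetub, a fetuin (10.08 against 4.51 to 7.97), Gjb1, the gap junction protein connexin 32 (9.16 against 4.94 to 7.60), and Lrrc26, an accessory subunit of potassium channels (10.17 against 6.20 to 7.36), were likewise highest in A45. Low in A45 were Efhd1, a calcium binding protein of mitochondria (4.77 against 7.23 to 10.12), Lgr6, a receptor for R-spondins (4.48 against 6.28 to 8.23), Lamb3, a laminin chain (4.91 against 6.46 to 8.56), and Fads1, a fatty acid desaturase (5.69 against 7.05 to 9.49). Efhd1, Lgr6 and Lamb3 lie on chromosome 1, whose genes are described together below, and Fads1 lies on chromosome 19.

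A59 stood out for neighboring homeobox genes. Hoxb2 was 4.30 in A45, 4.13 in A49, 4.09 in A54, 7.03 in A59 and 4.19 in AB11, Hoxb5 was 6.08 in A59 and 3.62 to 3.98 in the others, and the antisense transcript Hoxb5os was 7.75 against 5.02 to 5.58. Hoxb3 and Hoxb4, which lie between Hoxb2 and Hoxb5, were also highest in A59, at 5.57 (others 4.6 to 4.94) and 6.53 (others 4.89 to 5.49). Hoxb6, listed between Hoxb5 and Hoxb5os, and Hoxb1, Hoxb7, Hoxb9 and Hoxb13, on either side of that stretch, had signals of 2.76 to 4.83 in all 5 tumors. Low in A59 were Gstt2, a glutathione transferase (4.11 against 6.53 to 8.77), Elapor1 (6.07 against 7.69 to 9.85), the claudin Cldn2 (4.99 against 6.74 to 8.70), Plagl1, an imprinted zinc finger gene (4.97 against 7.65 to 8.83), and Dpyd, which breaks down pyrimidines (4.89 against 7.82 to 8.20). Gstt2 and Plagl1 lie on chromosome 10, whose genes are described together below, Elapor1 and Dpyd on chromosome 3 and Cldn2 on X. The second probe set of Plagl1 was even, at 4.44 to 4.79. Apoc1, an apolipoprotein, was 11.09 in A45, 10.45 in A49, 11.30 in A54, 5.74 in A59 and 7.97 in AB11, so that A59 and AB11 were both low.

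The long noncoding RNA Neat1, which builds nuclear paraspeckles, was 11.96 in A45, 10.78 in A49, 11.09 in A54, 9.83 in A59 and 8.49 in AB11, lowest in AB11. Tfap2b, a transcription factor of the AP-2 family, divided the tumors in another way, with 7.22 in A45, 7.98 in A49 and 4.79 to 4.87 in the others, and Apod, apolipoprotein D, did the same (8.36 and 9.51 against 5.76 to 6.35). Scrg1 was high in A54 and AB11 (9.89 and 9.91, against 5.90 to 7.88). Rdh12, a retinol dehydrogenase, was 4.42 in A45, 7.28 in A49, 7.64 in A54, 4.68 in A59 and 9.17 in AB11, and Dpp10, a subunit of potassium channels, was 7.81 in A45, 6.35 in A49, 2.72 in A54, 5.67 in A59 and 3.14 in AB11. A45 was lowest for the first and highest for the second. Cpe, carboxypeptidase E, was high in A45 and A59 (11.24 and 10.63, against 7.12 to 8.14).

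**Figure D4:**
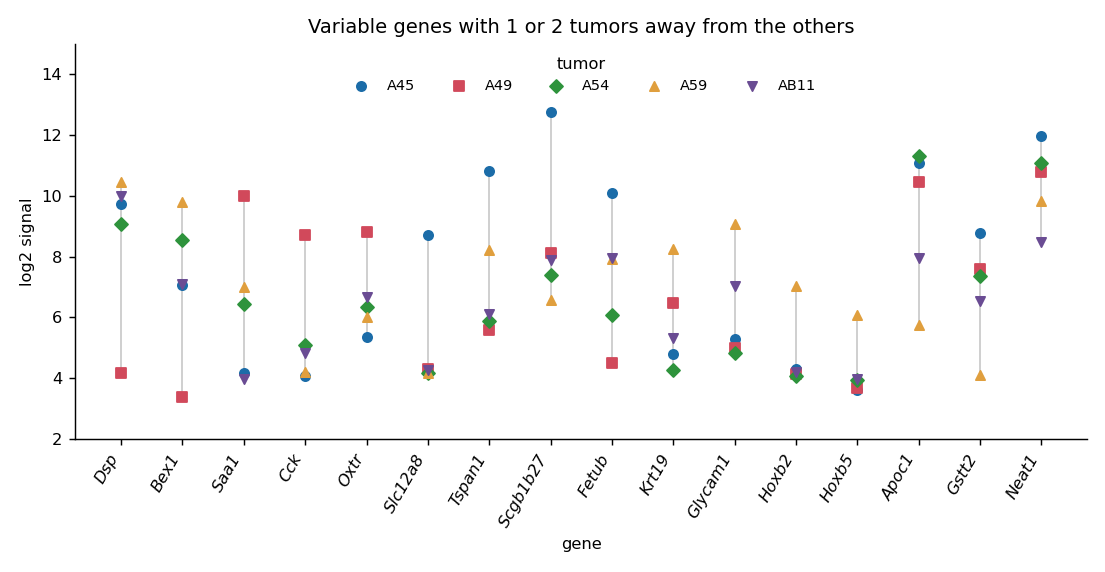
Log2 signals (vertical axis) of 16 variable genes, with 1 symbol per tumor and a gray line from the lowest to the highest. Dsp and Bex1 are low in A49, Slc12a8, Tspan1, Scgb1b27 and Fetub are high in A45, Hoxb2 and Hoxb5 are high in A59, and Neat1 is lowest in AB11.

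A second probe set was present for 120 of the 243 variable genes and gave a check of the values. It was highest in the same tumor as the first in 74 of the 120 (61.7%), against 38.4% of all 9010 genes that had a second probe set. Of the 37 whose second probe set had a mean above the median gene, 25 named the same tumor. For Clca3a2, Emb, Gjb1 and Tfap2b the second probe set also had an SD of at least 1. Of the 120 second probe sets, 42 had an SD of at least 1, and of the 37 above the median gene, 18 did. Among the second probe sets with an SD under 1, that of Pip was under the background level (2.83 to 3.20). That of Neat1 was low but above it, and even (4.89 to 5.21). Others had clear signals and were even too, as for Sdc3 (mean 7.07, SD 0.08) and Prpf4b (mean 7.35, SD 0.18). The reverse was also seen. Of the genes whose probe set in use had an SD under 1, 47 had another probe set with an SD of at least 1 (0.262% of 17950 genes). Among them were Klk1, Lbp, Fabp3 and H2-Ab1. The 17950 include genes with a single probe set, which cannot show this, so the share cannot be set against the 42 of 120. Lbp, which binds bacterial lipopolysaccharide, was highest in A49 by that probe set (9.23, against 6.74 to 8.43), and so was Fabp3, a fatty acid binding protein (6.77, against 4.39 to 6.17).

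The mean of 25 fibroblast and matrix genes was 6.94 in A45, 7.36 in A49, 7.31 in A54, 7.70 in A59 and 6.75 in AB11, and A59 was highest for 16 genes while AB11 was lowest for 16. The collagen chain Col1a1 was 8.21 in A45, 9.21 in A49, 8.90 in A54, 9.10 in A59 and 7.53 in AB11, Col3a1 was 8.86 to 10.66 and periostin (Postn) 7.94 to 9.92, with AB11 lowest for each and A59 highest for the last 2. Lumican (Lum), a collagen-binding proteoglycan, was the only one with an SD of at least 1, with 7.02 in A45, 8.28 in A49, 6.61 in A54, 8.05 in A59 and 5.72 in AB11. Col1a2, the partner of Col1a1 in type I collagen, was 9.20 in A45, 10.13 in A49, 9.97 in A54, 10.22 in A59 and 8.73 in AB11. Dermatopontin (Dpt) was 7.84 in A59 and 5.98 to 6.57 in the others, and Fap, a protease of activated fibroblasts, was 4.61 to 6.42, lowest in AB11. Sparc was high and even, at 10.59 to 11.02. Vimentin (Vim), of mesenchymal cells, was 9.80 to 10.33, and the mesenchymal transition factors Snai1 (5.08 to 5.41), Twist1 (3.38 to 3.95) and Zeb2 (4.54 to 4.86) were low, with Snai2 at 5.16 to 6.29. Tgfbi, a matrix protein induced by TGF-beta, was 8.77 in A49 and 6.78 to 7.60 elsewhere.

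Vessel genes were close in all tumors. The 20 endothelial genes had means of 5.86 in A45 to 6.14 in A59, and 0 reached an SD of 1. Pecam1 (CD31) was 5.67 to 6.08, the VEGF receptors Kdr 6.48 to 7.11 and Flt1 7.06 to 7.43, and von Willebrand factor (Vwf), the most variable, 3.84 to 4.79. Contractile cells of vessel walls and myoepithelium had means of 6.69 to 7.28; smooth muscle actin (Acta2) was 8.99 to 9.40, the pericyte gene Rgs5 8.35 to 9.16 and Pdgfrb 6.84 to 8.41, with A45 lowest for the latter 2. Desmin (Des), of smooth and skeletal muscle, was 7.02 in A54, 7.0 in A59 and 5.69 to 6.22 in the others, the same division as the muscle genes. Kcnj8, a potassium channel of pericytes, was 7.55 in A49, 7.85 in A59 and 6.34 to 6.84 in the others.

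Of the leukocytes, macrophages had clear signals. Csf1r, the receptor of their growth factor, was 9.83 to 10.12, Adgre1 (F4/80) 6.04 to 6.64 and the protease Ctss 10.17 to 11.17. The mean of 26 macrophage genes spanned only 0.28, from 6.94 in A45 to 7.22 in A49, which was highest for 12 of them. By the median of the members A59 was highest. Cd14, a receptor for bacterial lipopolysaccharide that luminal cells also express, was the single gene with an SD of at least 1, at 8.18 in A45, 10.57 in A49, 10.22 in A54, 9.73 in A59 and 7.94 in AB11. Arginase (Arg1), a gene of alternatively activated macrophages, was 8.5 in A59 and 9.83 to 10.33 elsewhere. Apoe, a lipid carrier that macrophages secrete, lay at 9.96 to 10.91, and the scavenger receptor Msr1 at 5.29 to 7.01, the former lowest and the latter highest in A59. The pan-leukocyte gene Ptprc (CD45) was 8.27 in A49 and 7.08 to 7.44 in the others.

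The list of dendritic cell and class II genes was highest in A49 by its mean, and in A59 by the median of its members. For the class II genes H2-Aa, H2-Ab1 and Cd74 themselves A49 was highest and A59 lowest. H2-Aa was 8.45 in A45, 10.40 in A49, 8.72 in A54, 7.75 in A59 and 8.38 in AB11, H2-Ab1 7.52 in A45, 9.59 in A49, 7.93 in A54, 7.29 in A59 and 7.51 in AB11 and the invariant chain Cd74 8.04 in A45, 9.96 in A49, 8.69 in A54, 7.95 in A59 and 8.23 in AB11. These 3 genes had SDs of 0.83 to 0.99 and were read by probe sets whose names mark them as shared between transcripts. With all such probe sets left out, the spread of the list of 13 genes was 0.13 in place of 0.56. That setting drops the above readings of H2-Aa, H2-Ab1 and Cd74 themselves. It also drops any gene with no other probe set, so the list may then hold fewer genes. The smaller spread therefore does not show where the signal of those probe sets came from. Another probe set of H2-Ab1, also marked as shared, was likewise highest in A49 (9.05, against 6.53 to 6.93). The class II transactivator Ciita was at 4.08 to 4.72. Among markers of lymphocytes, Cd3e lay at 5.69 to 6.03, Cd8a at 5.00 to 5.32 and Cd79a at 4.67 to 5.31, but Cd4 at 6.04 to 6.42, the T cell kinase Zap70 at 7.13 to 7.36 and the antibody chain Ighm at 8.12 to 8.53, with list means of 4.52 to 4.87 for T and NK cells. AB11 was highest for 12 of the 25 T and NK cell genes and for 8 of the 15 genes of B and plasma cells. Only 4 members of each list had a mean above the median gene. With those members alone, A49 was the highest tumor of the T and NK cell list. The background list of genes of other organs was also highest in AB11, at 4.32, against 4.08 to 4.23 elsewhere. Cd3d was 6.03 and granzyme B (Gzmb) 6.82 in AB11, against 4.84 to 5.70 and 5.30 to 6.19 in the others. The joining chain of secreted antibodies (Jchain) was 5.98 in A45, 7.13 in A49, 4.86 in A54, 6.11 in A59 and 7.73 in AB11. Salivary glands are known to hold plasma cells that secrete IgA, and Igha was 8.20 in A45, 9.57 in A49, 7.56 in A54, 8.19 in A59 and 9.52 in AB11, so A49 and AB11 were both high. The chemokine Ccl5 was highest in A49 (7.24, against 5.75 to 6.19). Lists of neutrophils, mast cells and red blood cells had means of 3.93 to 4.70, close to the background level.

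Genes of the cell cycle were on average highest in A59 and A45. The mean over 22 genes was 8.34 in A45, 7.65 in A49, 7.62 in A54, 8.55 in A59 and 7.79 in AB11, and A59 was highest for 19 of them. The ribonucleotide reductase subunit Rrm2, the only one with an SD of at least 1, was 10.46 in A45, 8.42 in A49, 8.12 in A54, 10.51 in A59 and 9.08 in AB11, and Mki67 was 10.39 in A45, 9.14 in A49, 9.68 in A54, 10.44 in A59 and 9.13 in AB11. The mitotic kinases Plk1 and Bub1 were 8.38 and 7.76 in A59 and 7.99 and 7.22 in A45, against 6.93 to 7.29 and 6.14 to 6.74 in the others. For these 4 genes A45 and A59 lay above the rest, but Cdc20, an activator of the anaphase-promoting complex, was lowest in A45 (9.20), with A59 at 9.89 and AB11 at 9.70. Cdkn1a, the p21 inhibitor of the cell cycle, was high in the same 2 tumors (9.97 and 8.85, against 7.41 to 7.64). Genes induced by hypoxia had means of 8.34 in A45, 8.55 in A49, 8.59 in A54, 8.91 in A59 and 8.31 in AB11, with A59 highest for 14 of 27. Adrenomedullin (Adm) was 9.47 in A59 and 6.52 to 7.77 in the others, and P4ha2, which hydroxylates collagen prolines, 6.84 in A59 and 5.02 to 5.98 elsewhere, whereas Angptl4, an inhibitor of lipoprotein lipase, was highest in A54 (9.29) and A49 (8.42). The glycolysis genes Ldha (11.50 to 12.29) and Pgk1 (11.83 to 12.40) were high in all 5.

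When genes were ordered by their place in the genome, whole chromosomes differed between tumors. For the 9083 genes with a mean above the median gene and a place on chromosomes 1 to 19 or X of the GRCm38.p6 table (used for gene order alone, since no build is named for the arrays), the deviation of each tumor from the gene's own median over the tumors was taken, less the median deviation of the array. Chromosome 4 was low in A45, with a median deviation of -0.40 over 564 genes, and A45 held the lowest signal for 49.8% of them, against 18.2% of all 9083. In 11 blocks of at least 50 neighboring genes along chromosome 4, the deviation of A45 was -0.595 to -0.305. In A59 chromosome 4 was low in part. Blocks 5 to 9 had deviations of -0.505 to -0.365, the 4 blocks before them -0.15 to 0, block 10 -0.03 and block 11 -0.46.

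Chromosome 10 was low in A59, at -0.32 over 437 genes, of which 59.7% were lowest in that tumor, against 25.2% of all genes. Its first 6 blocks lay between -0.60 and -0.31, and the last 2 at 0 and -0.07. A45 was low on chromosome 1, at -0.18, with 50.6% of 498 genes lowest. A49 was high on chromosomes 2 (0.21), 3 (0.19), 6 (0.16), 11 (0.23) and 17 (0.25), and on these it held the highest signal for 49.02% to 60.6% of genes, against 24.2% of all genes. A49 was low on chromosome 18, at -0.15, with 47.5% of 223 genes lowest, against 22.2% of all. In A54 and AB11 no chromosome median was beyond 0.04 from 0 apart from chromosome 4, where they stood at 0.16 and 0.10, in a comparison in which A45 and A59 were both low. Over all genes, weak signals included, the medians were closer to 0, at -0.19 for chromosome 4 in A45, -0.03 for chromosome 4 in A59, -0.08 for chromosome 10 in A59 and 0.05 to 0.11 for chromosomes 2, 11 and 17 in A49. DNA copy number was not measured, and its part in these differences was not tested.

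**Figure D5:**
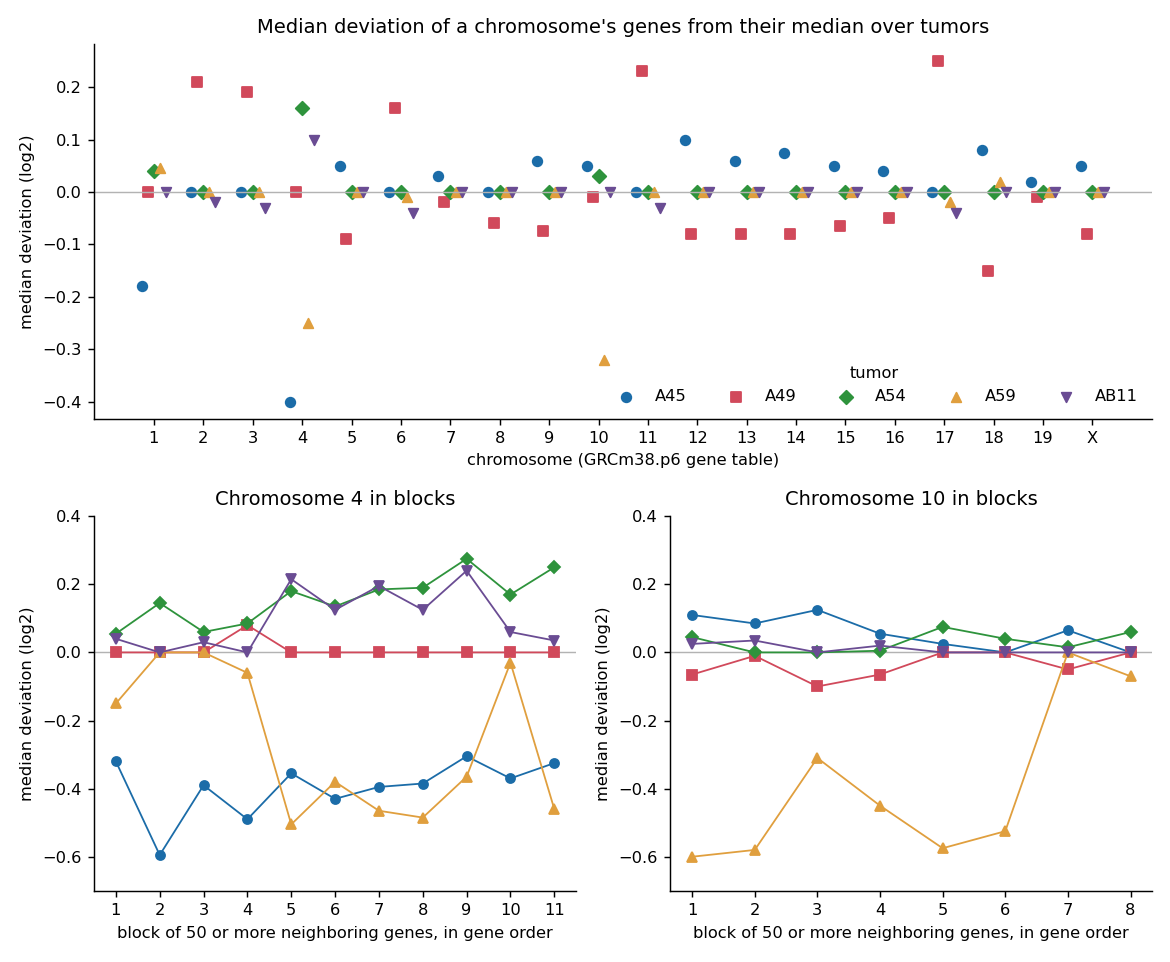
The upper panel gives, for each chromosome and tumor, the median log2 deviation of its genes from their median over the 5 tumors, and the lower panels give the same in blocks of at least 50 neighboring genes of chromosomes 4 and 10, in gene order. A45 is low along all of chromosome 4 (-0.40), A59 is low in 5 consecutive blocks of it and in the first 6 blocks of chromosome 10, and A49 is high on chromosomes 2, 3, 6, 11 and 17.

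No single axis summed up the tumors. The 4 principal components of the centered genes, which are all that 5 tumors allow, held 29.3%, 27.5%, 26.8% and 16.3% of the variance. On the first, A49 and AB11 were at opposite ends, with Saa1, Clca3a1, Apod, Cck and Ltf among the genes toward A49. On the second, A45 and A59 lay opposite to A49, A54 and AB11, and on the third A59 lay opposite to A45. The 2 nearest tumors, A54 and AB11, had 356 genes at least 2-fold apart, and the 2 most different by this count, A49 and A59, had 946. Among genes that are neighbors in the genome, 10 adjacent pairs had an SD of at least 1 in both genes. In 5 of these pairs both genes were highest in the same tumor, namely Myh2 with Myh1, Clca3a1 with Clca3a2, Csn1s2a with Csn1s2b, Scgb2b27 with Scgb1b27 and Saa1 with Saa2. Each of these 5 pairs joins genes of 1 family, whose probe sets may share signal. How often neighbors agree over all genes was not counted, so the 5 pairs do not show a trait of neighboring genes.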

How the data were processed

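The deposited table holds log2 signals, which the authors made by RMA with the affy package (versions and genome build are not given in the sources used here), 1 column per array. The columns of the 5 vehicle tumors were used, and the 5 other sample columns were not. Of 45101 probe sets, 64 controls were left out. Of the 45037 others, 34945 carried 1 gene symbol, 932 several and 9160 none in the platform annotation, and 34741 matched the RefSeq gene table of GRCm38.p6, which served for names, gene order and promoters. Keeping the probe set of highest mean per gene gave 18193 genes. Means, SDs (n - 1) and ranges over the 5 tumors were computed with Python 3.11.15, numpy 2.4.6, pandas 2.3.3 and scipy 1.17.1, and the scripts were tested on simulated data. No test between groups was made, and arrays have no read depth, so the number of arrays limits the precision.

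The members and the 27 gene lists were chosen with earlier results of these data known. Genes were named by rule: the 20 of highest mean, the 40 of largest SD, and in each list up to 4 of largest SD and 3 of highest mean, with fixed lineage markers, 222 in all, of which 174 are described. The 70 other genes in the text were chosen after their values were seen. Alternatives were quantile normalization again, centering of each array, averaging a gene's probe sets, leaving out shared probe sets, a filter on low means, other measures of spread, and leaving out each tumor in turn.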

Additional observations from a re-analysis of the deposited data

Results flagged for a closer look

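In the following results the highest or lowest of the 5 tumors lay so far from the nearest other, relative to the whole range, that the gap passed Dixon's 95% critical value for 5 samples. Chance alone sets apart about 1 group in 20, and 6.41% of all genes met the criterion here. Of the 244 genes named in the text, 28 did. Many of the 244 were chosen for their spread or after their values were seen, so that count is no measure of an excess.

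AB11 was set apart upward for Smr3a (13.56), Dnase1 (12.97), 2310057J18Rik (12.48), Pip (12), Lpo (9.63), Bpifb1 (9.26), Prpmp5 (8.92) and Mucl2 (7.20), and downward for Chil1 (9.73), Prpf4b (5.84) and Rps28 (13.03). A45 was set apart upward for Scgb1b27 (12.77) and Slc12a8 (8.70) and downward for Csn1s1 (11.41). A59 was set apart upward for Hoxb5os (7.75), Hoxb2 (7.03) and Hoxb5 (6.08) and downward for Arg1 (8.5) and Dpyd (4.89). A49 was set apart upward for Scd1 (13.23), H2-Ab1 (9.59) and Cck (8.73) and downward for Aqp5 (12.01), Col4a4 (4.58) and Dsp (4.16). A54 was set apart upward for Tnnc1 (5.48) and downward for Adgre1 (6.04) and Hoxb6 (3.05).

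Of the 27 gene lists, 2 met the criterion, both through A49: the epidermis list was low there (4.31) and the list of dendritic cells and class II genes high (6.09). Among chromosomes whose medians ranged over at least 0.2, A45 was low on chromosome 1 (-0.18), A59 low on chromosome 10 (-0.32), and A49 high on chromosomes 2 (0.21), 3 (0.19), 6 (0.16), 11 (0.23) and 17 (0.25).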

How the results depend on the processing

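No paired analysis was possible because a single group was described. The number of genes with an SD of at least 1 was 243 in the deposited values, 166 to 243 under the other settings, and 237 to 304 when 1 tumor was left out. The list spread (highest minus lowest tumor) of luminal genes was 0.44, and 0.85 by the median of the members. For basal genes it was 0.28, then 0.875 with members above the median gene alone, 0.40 by the median of the members, and 0.121 to 0.277 when 1 tumor was left out, lowest without A45. The macrophage spread of 0.28 was 0.431 with members above the median gene and 0.43 by the median. The highest tumor of a list was kept for 18 of 27 lists by the median of the members. It was kept for 18 of 25 with members above the median gene, and for 24 or 25 of 27 under the other settings. By the median, the lists of macrophages, of interferon-stimulated genes and of dendritic cell and class II genes moved from A49 to A59. Basal genes moved to A59 under 3 settings. The salivary spread was 1.10 to 3.55 when 1 tumor was left out, lowest without AB11. Other lists not singled out here moved in 28 of 106 settings, and in 13 of 90 with 1 tumor left out. Of the 20 genes of highest mean, 11 were kept with the mean of all probe sets and 2 without shared probe sets, since 18 of the 20 are read by shared ones. With all genes in place of those above the median gene, an alternative chosen after seeing the data like all those on chromosomes, medians were -0.08 for chromosome 10 in A59, and 0.11, 0.05 and 0.06 for chromosomes 17, 11 and 2 in A49. The cause of these shifts was not tested, except where the setting removes the genes itself. The milk, salivary and muscle spreads moved by less than the SD between tumors under every setting that kept all 5 tumors. The first principal component held 36.1% to 40.2% with 1 tumor left out. The variance is then divided over fewer components, so these shares cannot be set against the 29.3% of all 5 tumors. The tumor of highest signal stayed the same for 229 of the 244 named genes after quantile normalization again, for 234 after centering, for 213 with the mean of all probe sets and for 173 of the 190 measured without shared probe sets. With 5 arrays and no technical replicate, differences near the background level cannot be told from array error.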

Other observations

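The 10092 probe sets that carry no gene symbol or several were kept out of all counts above. Of these, 61 (0.604%) had an SD of at least 1, and the largest SD among them was 3.82. Their highest signal fell in A54 for 18, in A45 for 16, in A49 for 15, in A59 for 6 and in AB11 for 6.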
